A study of Mus musculus with 4 samples.

Results

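Histone methylation and acetylation enzymes were followed in cultured mouse microglia of the immortalised line BV2. All 4 libraries come from cells labelled as CRISPR-Cas9 knockouts of Pu.1, so both groups share that edit. One group was not treated and the other received lipopolysaccharide (LPS), a bacterial cell wall component, at 10 ng/ml, with 2 libraries in each. Labels disagree on the length of LPS exposure, with 2 h in one and 4 h in another. Whether the knockout cells are 1 clone is not given in the labels, and wild-type cells are not analysed here.

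The genes were chosen by symbol. They comprise the numbered Kdm, Kmt, Hdac, Sirt, Setd and Kat genes with Setdb1 and Setdb2, and Crebbp, Ep300, Ehmt1, Ehmt2, Suv39h1, Suv39h2, Nsd1 and Dot1l. Of 24411 gene symbols, 67 matched, 63 had at least 10 reads summed over the 4 libraries and 62 had enough reads to be tested. Histone enzymes with other symbols, such as Ezh2, are therefore not among them. The symbol rule itself used no measured difference between the groups, but the members were chosen with earlier results of these data known.

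Histone tails carry methyl and acetyl groups on lysines. Acetyltransferases and methyltransferases write these marks, and deacetylases and demethylases remove them. Methylation of histone H3 at lysine 4 and acetylation mark active promoters and enhancers, whereas methylation at lysine 9 and lysine 27 marks silent chromatin. In macrophages and microglia these enzymes are known as regulators of inflammatory gene induction and tolerance, and most of them also act on proteins other than histones.

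Gene reads totalled 3256197 to 4502105 per library, and the 67 genes took 0.220% to 0.306% of them. Levels are given in CPM, reads per 1000000 of the library size after TMM scaling. Spi1, which encodes PU.1, had 844 and 743 reads untreated and 745 and 958 after LPS. In scaled units these are 161 and 164 CPM against 258 and 291 CPM, a 1.69-fold rise (adjusted p = 8.8e-10). Its transcript was thus present in every library, which does not test the edit. Of 9 macrophage and microglial markers, all were detected, with summed levels of 1972 and 2053 CPM untreated and 2988 and 3196 CPM after LPS. Neuron and epithelial markers had no reads. Summed fibroblast, astrocyte, oligodendrocyte and lymphocyte markers did not exceed 1.39 CPM in any library. The 5 endothelial markers summed to 22.8 and 23.2 CPM untreated and 49.9 and 34.002 CPM after LPS, with Pecam1 and Tek at 0 reads, and their part in the results was not tested. In bulk RNA, fewer cells of a type and less RNA per cell cannot be told apart.

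After LPS, 12 of the 62 tested enzyme genes rose and 13 fell, at an adjusted p below 0.05 in edgeR's quasi-likelihood test over all genes. Of all 9992 genes tested, 26.6% were higher and 25.3% lower by the same rule. The enzymes' shares were 19.4% and 20.97%. In either direction 40.3% of the enzymes were called, against 51.9% of all genes. The median log2 fold change of the enzymes was 0.04, beside 0.00063 over all genes. At 2-fold or more, 3 enzymes were higher (4.84%) and 3 lower (4.84%), beside 9.47% and 7.73% of all genes. The 2-fold risers were the methyltransferase gene Setdb2, the acetyltransferase gene Kat2b and the demethylase gene Kdm5b. Those that fell as far were the acetyltransferase gene Kat7, the demethylase gene Kdm2b and the deacetylase gene Hdac5. Library levels did not overlap between the groups for 45 enzymes (72.6%), against 75.1% of all genes. Of these, 20 were above after LPS, beside 37.5% of all genes, and 25 below, beside 37.6%.

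These calls depended on the scaling and the test. With libraries scaled by size alone the median of all genes moved to -0.36, and 6 enzymes were higher and 29 lower. Of all genes 61.6% were called by that scaling, and 22.4% of those calls were higher. The log2 fold changes of Hdac1, Kdm7a, Kdm5a and Kdm4a, all higher, were then 0.51, 0.46, 0.35 and 0.35. Upper-quartile scaling gave 10 and 20, beside 52.8% of all genes called, 42.1% of those higher. DESeq2 gave 7 and 8, beside 33.3% of all genes called, 55.3% of those higher.

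**Figure D1:**
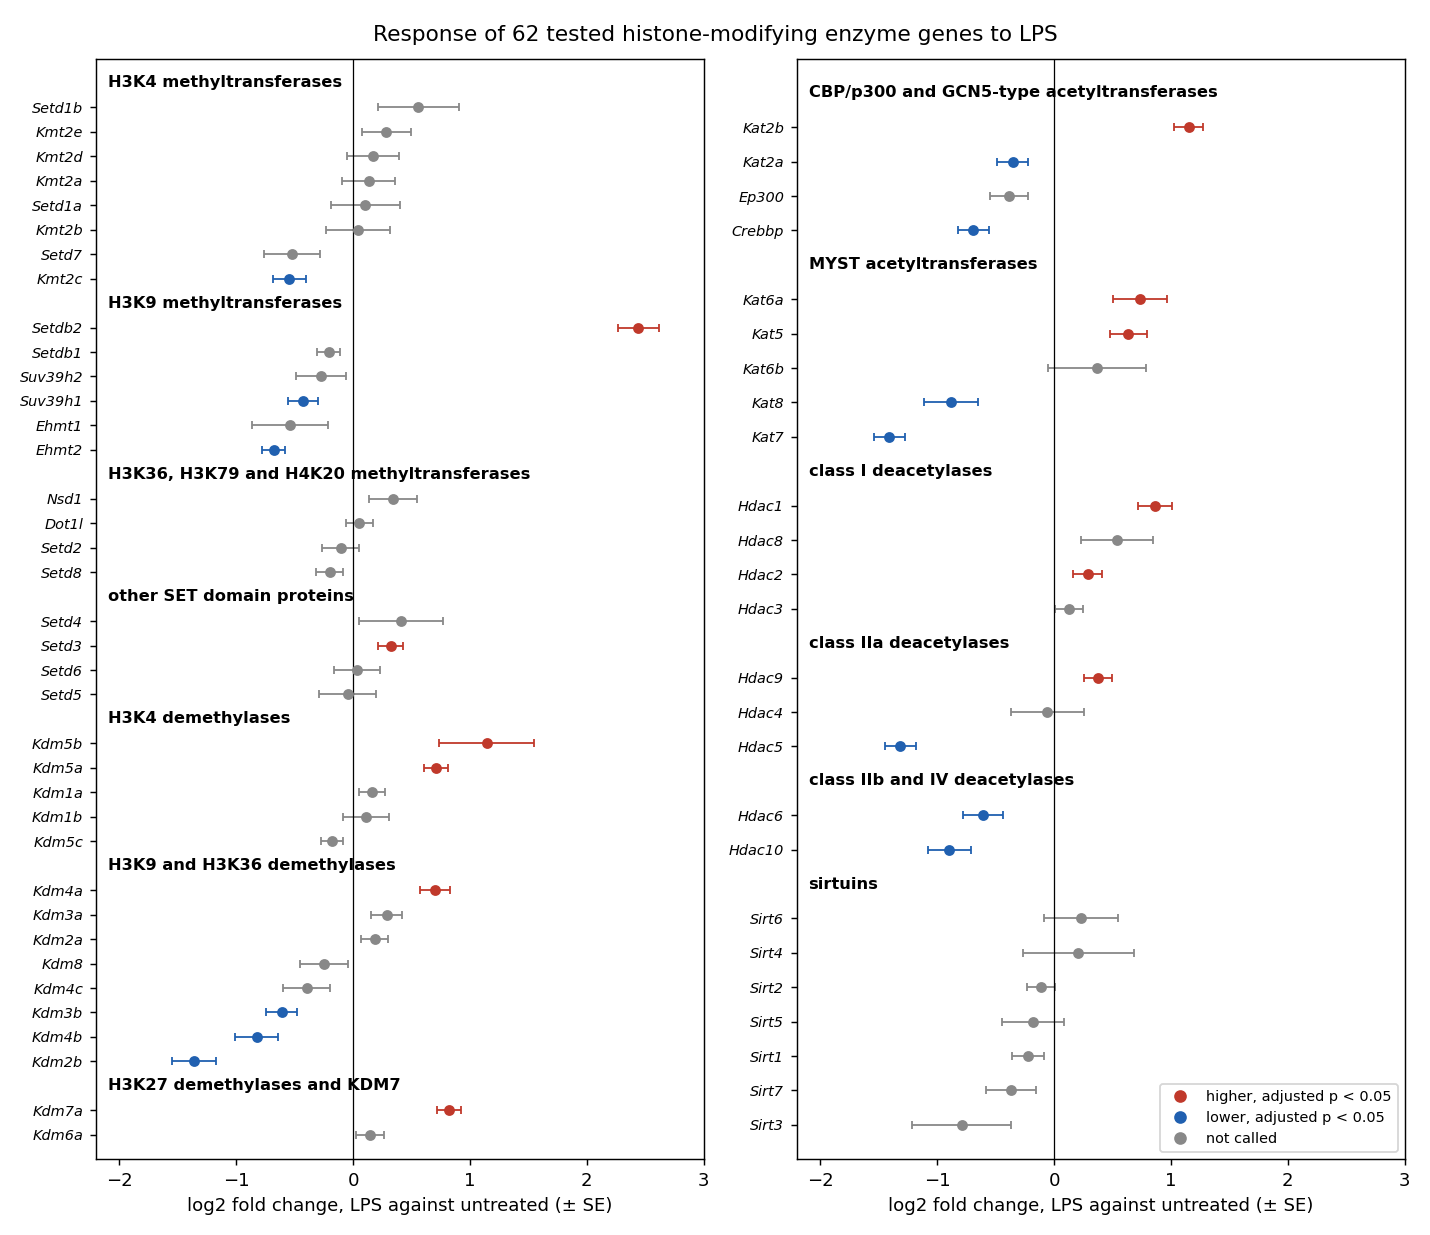
Log2 fold change after LPS, with its SE, of the 62 tested genes, grouped by the role of the enzyme. Red genes were higher and blue genes lower at an adjusted p below 0.05, and grey genes were not called; Setdb2 at 2.44 stands farthest right and Kat7 at -1.41 farthest left.

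Promoters are shown for the gene that rose most (Setdb2), for the risers whose promoter held the PU.1 or the interferon-response spelling searched here (Kat2b and Kat5), and for the gene that fell most (Kat7). Kat2b and Kat5 were taken for display after their matches were seen, each with the window that holds the match, 1 of 2 in the table. Each sequence is the RefSeq window from 250 bases before to 50 bases after an annotated start, in GRCm38.p6 and read 5′ to 3′ on the gene's strand. Capitals mark the matches.
Setdb2, chr14:59440831-59441130 minus strand: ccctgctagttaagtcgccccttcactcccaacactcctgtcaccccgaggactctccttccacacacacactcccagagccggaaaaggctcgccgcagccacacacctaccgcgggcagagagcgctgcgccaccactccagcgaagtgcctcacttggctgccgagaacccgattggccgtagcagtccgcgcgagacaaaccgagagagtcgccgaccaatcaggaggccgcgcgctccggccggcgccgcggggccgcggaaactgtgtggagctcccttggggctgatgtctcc
Kat2b, chr17:53566721-53567020 plus strand: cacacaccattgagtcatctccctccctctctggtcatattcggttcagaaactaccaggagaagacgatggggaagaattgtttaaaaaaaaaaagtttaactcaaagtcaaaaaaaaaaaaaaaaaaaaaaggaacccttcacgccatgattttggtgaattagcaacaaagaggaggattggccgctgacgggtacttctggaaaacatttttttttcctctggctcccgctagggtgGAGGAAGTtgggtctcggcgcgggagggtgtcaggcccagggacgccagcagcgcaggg
Kat5, chr19:5610045-5610344 minus strand: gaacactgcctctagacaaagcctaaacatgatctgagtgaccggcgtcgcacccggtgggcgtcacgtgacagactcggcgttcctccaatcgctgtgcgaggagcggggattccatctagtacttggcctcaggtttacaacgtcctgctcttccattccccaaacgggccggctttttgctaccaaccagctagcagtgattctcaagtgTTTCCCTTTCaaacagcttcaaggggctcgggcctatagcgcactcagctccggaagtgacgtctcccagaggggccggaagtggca
Kat7, chr11:95310197-95310496 minus strand: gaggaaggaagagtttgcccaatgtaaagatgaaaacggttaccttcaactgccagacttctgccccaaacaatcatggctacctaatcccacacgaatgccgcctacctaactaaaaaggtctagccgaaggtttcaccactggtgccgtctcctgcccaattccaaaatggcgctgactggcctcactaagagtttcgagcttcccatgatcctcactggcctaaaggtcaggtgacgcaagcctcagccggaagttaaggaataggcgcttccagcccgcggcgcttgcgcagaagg

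The spellings of 3 motifs were searched on both strands of these windows. The PU.1 core GAGGAAGT was found in 1 of 68 windows of 50 tested enzyme genes, that of Kat2b, where it starts 9 bases before the annotated start. It is in 3.2% of all 32851 windows in the table. The interferon-response spelling (GAAA, any 2 bases, GAAA) was found in 1 enzyme window, that of Kat5, on the opposite strand, and in 3.44% of all windows. The NF-kB frame (GGGA, any 4 bases, CC) was found in 21 of the 68 enzyme windows, while its share of all 32851 windows was 20.7%. Some of the 21 belong to the same gene, as for Kdm2b and Setd8. The frame was in neither the Setdb2 nor the Kat7 window. None of the 3 motif spellings is in the Setdb2 window, which says only that these letters are absent there.

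Among the H3K9 methyltransferase genes, Setdb2 rose, Ehmt2 and Suv39h1 fell, and Setdb1, Suv39h2 and Ehmt1 were not called, although by library size alone they were lower too (adjusted p = 3.3e-06, 0.0092 and 0.012). Calls by enzyme role, here and below, stand beside 26.6% of all genes higher and 25.3% lower. By library size alone 61.6% of all genes were called, 22.4% of those higher. Setdb2 encodes a SET domain methyltransferase known as interferon-induced in macrophages. Its level was 7.84 and 12.2 CPM in the untreated libraries and 54.1 and 53.4 CPM after LPS. Both LPS libraries lay above both untreated ones, a 5.43-fold rise (log2 fold change 2.44, SE 0.18, adjusted p = 1.1e-16). Ehmt2 encodes G9a, which writes mono- and dimethylation at this lysine. It stood at 156 and 159 CPM untreated and at 97.7 and 99.6 CPM after LPS, a log2 fold change of -0.68 (SE 0.10, adjusted p = 8.9e-08). The fall of Ehmt2 was smaller, at -0.26, after correction for GC content. Suv39h1, an enzyme of trimethylation in heterochromatin, went from 54.5 and 57.9 to 43.7 and 40.1 CPM (log2 fold change -0.43, SE 0.13). For Suv39h1 DESeq2 gave an adjusted p of 0.094, and the call was also lost without untreated replicate 2 (adjusted p = 0.0697).

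Setdb1, the closest relative of Setdb2, was far more abundant in untreated cells, at 131 and 120.1 CPM, and stood at 114 and 103.5 CPM after LPS. Its log2 fold change of -0.21 (SE 0.10, adjusted p = 0.080) missed the threshold, although it passed without LPS replicate 1 (adjusted p = 0.0247). Per kilobase of the longest transcript, Setdb2 moved from 3.30 to 17.7 CPM and Setdb1 from 22.2 to 19.3 CPM, so these mean levels came close to each other after LPS. Suv39h2 was at 15.7 CPM in each untreated library and at 13.5 and 12.45 CPM after LPS. Ehmt1, the partner of G9a, was at 6.31 and 8.40 CPM and then at 5.20 and 4.86 CPM. With 102 reads in all, Ehmt1 had a log2 fold change of -0.54 with an SE of 0.32, so a change of moderate size was not resolved at this depth.

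Of 8 H3K4 methyltransferase genes, 1 fell and none rose, beside 25.3% of all genes lower and 26.6% higher. Library size alone gave 2 lower and none higher, beside 61.6% of all genes called. GC correction gave 1 each way, beside 49.2%, and DESeq2 called none, beside 33.3%. Kmt2c, a catalytic subunit of complexes that methylate enhancers, had 54.1 and 53.96 CPM untreated and 44.4 and 30.4 CPM after LPS. The groups did not overlap (log2 fold change -0.55, SE 0.14, adjusted p = 0.0013), but the call was lost without LPS replicate 2 (-0.28, adjusted p = 0.127) and with DESeq2 (adjusted p = 0.0503). Without LPS replicate 1 the Kmt2c value was -0.83. Its relative Kmt2d stood at 58.9 and 64.4 CPM untreated and at 88.0 and 51.9 CPM after LPS. Those LPS libraries lay on either side of the untreated ones, and the log2 fold change of 0.17 had an SE of 0.22. Kmt2a, the mixed-lineage leukaemia gene, was split in the same way, with 35.3 and 18.2 CPM after LPS around 23.3 and 24.8 CPM untreated. Without LPS replicate 2, Kmt2d, Kmt2a and Setd1b passed the test as higher (log2 fold changes 0.52, 0.56 and 0.99; adjusted p = 0.000297, 0.0083 and 0.0257). The remaining 4 genes (Kmt2b, Kmt2e, Setd1a and Setd7) had log2 fold changes between -0.52 and 0.28 and were not called.

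None of the 4 genes of H3K36, H3K79 or H4K20 methylation was called, although 3 of them were lower with library size alone. That scaling called 61.6% of all genes, and 22.4% of its calls were higher. Dot1l, the H3K79 methyltransferase, was at 75.7 and 79.8 CPM untreated and at 87.7 and 74.1 CPM after LPS (a log2 change of 0.05, SE 0.12). The Dot1l value passed the test in opposite directions under other scalings, at -0.30 by library size alone and 0.37 after GC correction. Setd8, now named Kmt5a, writes H4K20 monomethylation. It stood at 94.1 and 90.5 CPM and then at 71.7 and 88.3 CPM (log2 fold change -0.20, SE 0.11), and passed without LPS replicate 2 (adjusted p = 0.0123). Nsd1 and Setd2, both H3K36 methyltransferase genes, had log2 fold changes of 0.34 (SE 0.21) and -0.10 (SE 0.16). Among other SET domain genes, Setd3, which encodes an actin histidine methyltransferase, rose from 95.4 and 89.6 to 114 and 117 CPM (log2 fold change 0.32, SE 0.10, adjusted p = 0.0082), but stood at -0.04 when libraries were scaled by size only. Setd3 also missed the threshold with DESeq2 (adjusted p = 0.0788) and without untreated replicate 2 (adjusted p = 0.148). Setd4 and Setd6 were not called (0.41, SE 0.36, and 0.04, SE 0.20). Setd5 varied widely between libraries, with 30.8 and 42.2 CPM untreated and 44.7 and 26.4 CPM after LPS. Its log2 fold change was -0.05 (SE 0.24), or -0.45 without LPS replicate 1 (adjusted p = 0.0278).

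Of 5 tested H3K4 demethylase genes, Kdm5a and Kdm5b rose and none fell, beside 26.6% and 25.3% of all genes. By library size alone 1 was higher and 1 lower, beside 61.6% of all genes called, 22.4% of those higher. Kdm5a, which removes trimethylation at active promoters, rose from 99.3 and 85.1 to 157 and 145 CPM (1.63-fold, log2 fold change 0.71, SE 0.10, adjusted p = 7.5e-08). Kdm5b, of the same subfamily, was far less abundant, with 13 and 9 reads untreated and 14 and 17 after LPS. In scaled units these are 2.49 and 1.99 CPM against 4.85 and 5.16 CPM (2.21-fold, SE 0.41 on the log2 scale, adjusted p = 0.017). The call of Kdm5b was lost when any 1 library was left out and with DESeq2 (adjusted p = 0.200). It was also lost by library size alone (0.79, adjusted p = 0.0949). Kdm5c, the X-linked member and the most abundant of these genes in untreated cells by CPM, was at 154 and 159.7 CPM untreated and at 147 and 129.9 CPM after LPS. It was not called (log2 fold change -0.18, SE 0.10), and without LPS replicate 1 it passed as lower (adjusted p = 0.0197). The Y-linked Kdm5d had no reads. Kdm1a, which encodes the flavin-dependent demethylase LSD1, was at 78.8 and 88.0 CPM and then at 92.9 and 93.5 CPM (log2 fold change 0.16, SE 0.11). Kdm1b, its relative, was not called (0.11, SE 0.19).

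**Figure D2:**
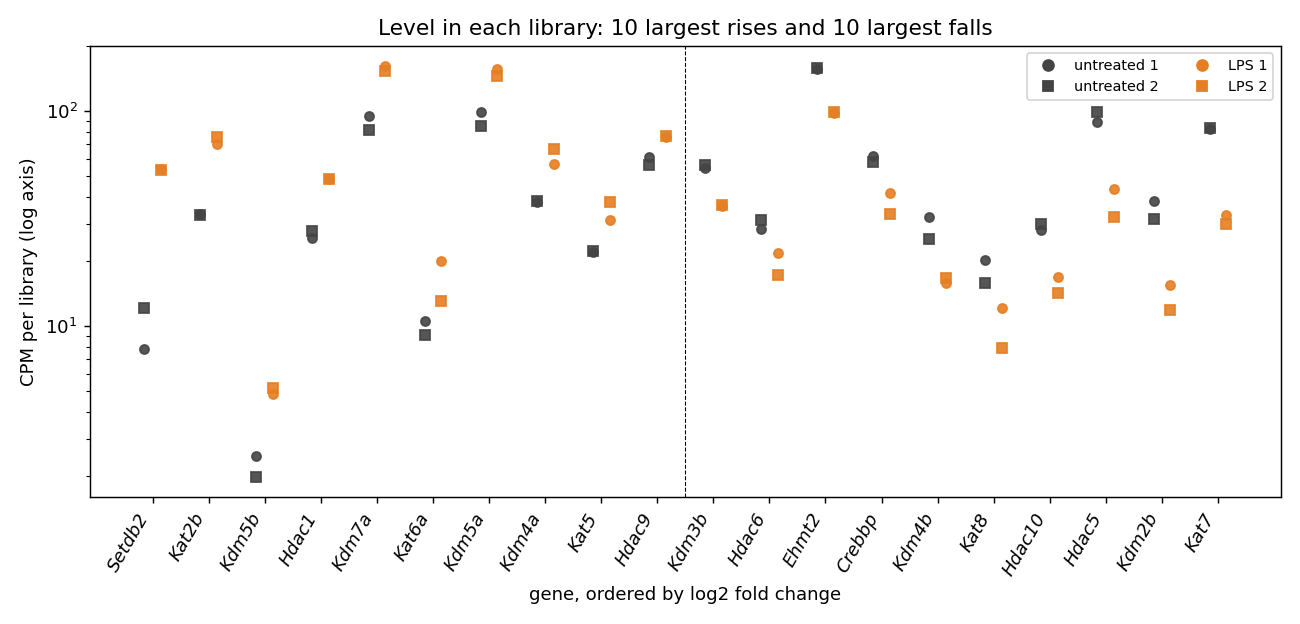
Level in CPM (log axis) in each library for the 10 largest rises and the 10 largest falls among called genes whose groups do not overlap, ordered by log2 fold change. Grey points are untreated and orange points LPS libraries, circles replicate 1 and squares replicate 2; Setdb2 moves from 7.84 and 12.2 to 54.1 and 53.4 CPM, and Kat7 from 82.8 and 83.4 to 32.9 and 29.8 CPM.

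The H3K9 and H3K36 demethylase genes moved both ways, with Kdm4a higher, Kdm2b, Kdm3b and Kdm4b lower, and 4 of the 8 tested not called. Of all genes, 26.6% were higher and 25.3% lower. Kdm2b encodes a CpG-island binding demethylase that brings a Polycomb complex to chromatin. It fell from 38.1 and 31.6 to 15.6 and 11.8 CPM (log2 fold change -1.36, SE 0.18, adjusted p = 1.9e-08). Its relative Kdm2a stood at 89.1 and 95.5 CPM untreated and at 121 and 89.6 CPM after LPS, was not called (0.18, SE 0.12), and passed as higher without LPS replicate 2 (adjusted p = 0.00202). Kdm4a, which removes trimethylation at lysines 9 and 36, rose from 37.9 and 38.0 to 56.8 and 66.5 CPM (1.63-fold, log2 SE 0.13, adjusted p = 9.2e-06). Kdm4b, with the same activity, fell from 32.1 and 25.4 to 15.9 and 16.7 CPM (log2 fold change -0.82, SE 0.18, adjusted p = 0.00016), and was at -0.46 after GC correction. Kdm3b fell from 54.7 and 56.4 to 36.04 and 36.7 CPM (log2 fold change -0.61, SE 0.13). Kdm3a, a hypoxia-responsive H3K9 demethylase gene, was at 40.4 and 41.4 CPM and then at 53.4 and 46.8 CPM, a log2 fold change of 0.29 that did not pass (adjusted p = 0.061) except without LPS replicate 2 (adjusted p = 0.0303). Kdm4c and Kdm8 were not called (-0.40, SE 0.20, and -0.25, SE 0.20). Kdm4d had 1 read in each untreated library and none after LPS, and no fold is given.

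The H3K27 demethylases, which remove the Polycomb mark, were represented by Kdm6a and Kdm6b, with the related Kdm7a. Kdm7a rose from 95.2 and 82.0 to 161 and 153 CPM (1.77-fold, log2 fold change 0.82, SE 0.10, adjusted p = 1.7e-09), or 0.54 on the log2 scale after GC correction. Kdm6a, on the X chromosome, was at 60.05 and 62.6 CPM and then at 65.8 and 69.8 CPM. It was not called (log2 fold change 0.15, SE 0.12). Kdm6b, or Jmjd3, is known as an LPS-induced gene of macrophages. Here it had 9 reads in each untreated library and 5 and 8 after LPS, which is 1.72 and 1.99 CPM against 1.73 and 2.43 CPM. It passed the filter of 10 reads and not that of the test. The ratio of LPS to untreated reads, adjusted for library size, was 1.14 with a 95% exact interval of 0.513 to 2.46 that covers counting error only. Ratios within that interval could not be told from no change at this depth.

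Of the CBP/p300 and GCN5-type acetyltransferase genes, Kat2b rose, Crebbp and Kat2a fell, and Ep300 was not called. Kat2b encodes PCAF, which acetylates histone H3. Its level was 33.1 and 33.0 CPM untreated and 70.3 and 76.2 CPM after LPS (2.22-fold, log2 fold change 1.15, SE 0.13, adjusted p = 9.2e-11). Kat2a, or GCN5, is its closest relative and was at 50.3 and 54.8 CPM and then at 46.1 and 36.4 CPM (log2 fold change -0.35, SE 0.13, adjusted p = 0.025). The Kat2a call was lost after GC correction (-0.04), with DESeq2 (adjusted p = 0.208), and without untreated replicate 1, untreated replicate 2 or LPS replicate 2 (adjusted p = 0.0522, 0.187 and 0.338). Crebbp encodes CBP, a coactivator that acetylates enhancers. It fell from 61.6 and 58.2 to 41.6 and 33.1 CPM (log2 fold change -0.69, SE 0.13, adjusted p = 2.5e-05). Ep300, its close relative, was at 64.1 and 71.4 CPM untreated and at 64.5 and 40.1 CPM after LPS. One LPS library thus lay at the untreated level and the other below it (log2 fold change -0.39, SE 0.16, adjusted p = 0.056). Without LPS replicate 1 the Ep300 value was -0.75 (adjusted p = 2.97e-06), and it also passed without untreated replicate 1 (adjusted p = 0.0211). In all, Ep300 was called lower under 8 of the 14 alternative settings, among them upper-quartile scaling, library size alone, both other filters and unstranded counts, and it was at -0.07 without LPS replicate 2.

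The MYST acetyltransferase genes split, with Kat5 and Kat6a higher, Kat7 and Kat8 lower, and Kat6b not called. Of all genes, 26.6% were higher and 25.3% lower. Kat7 encodes HBO1, which acetylates H3K14 and takes part in replication licensing. It had the largest fall of all 62 genes by log2 fold change, from 82.8 and 83.4 to 32.9 and 29.8 CPM (-1.41, SE 0.13, adjusted p = 6.1e-13). Kat8, or MOF, the H4K16 acetyltransferase, went from 20.3 and 15.9 to 12.1 and 7.89 CPM (-0.88, SE 0.23, adjusted p = 0.0014). DESeq2 gave Kat8 an adjusted p of 0.0641, and the call was also lost without LPS replicate 2 (-0.59, adjusted p = 0.0607). Kat5 encodes TIP60, the acetyltransferase of the NuA4 complex. It rose from 22.2 and 22.3 to 31.2 and 37.6 CPM (1.55-fold, log2 SE 0.16, adjusted p = 0.00080), and missed the threshold by library size alone (adjusted p = 0.143). Kat6a, or MOZ, was at 10.5 and 9.07 CPM and then at 20.1 and 13.1 CPM (1.66-fold, log2 SE 0.23, adjusted p = 0.0074). The Kat6a call was lost without untreated replicate 2, without LPS replicate 1 (0.41) and with DESeq2 (adjusted p = 0.118). It was also lost by library size alone (0.38, adjusted p = 0.152). Kat6b had 60 reads in all and a log2 fold change of 0.37 (SE 0.42).

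Class I deacetylases, the catalytic subunits of nuclear corepressor complexes, had 2 of 4 genes higher and none lower, beside 26.6% and 25.3% of all genes. Library size alone, DESeq2 and GC correction each gave 1 higher and none lower, beside 61.6%, 33.3% and 49.2% of all genes called. Hdac1 rose from 25.6 and 27.6 to 48.2 and 48.6 CPM (1.82-fold, log2 fold change 0.86, SE 0.14, adjusted p = 1.3e-06). Hdac2 went from 62.3 and 53.3 to 65.2 and 76.2 CPM (log2 fold change 0.29, SE 0.12, adjusted p = 0.046), but stood at -0.07 when libraries were scaled by size only. The Hdac2 call was also lost after GC correction (0.07), with DESeq2 (adjusted p = 0.237), and without untreated replicate 1, untreated replicate 2 or LPS replicate 2 (adjusted p = 0.0528, 0.435 and 0.347). Hdac3, the deacetylase of the NCoR and SMRT corepressors, was at 59.9 and 56.2 CPM and then at 63.1 and 64.1 CPM (log2 fold change 0.13, SE 0.12, not called). Hdac8 was not called either, with 102 reads in all (0.54, SE 0.31).

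Of the class IIa deacetylases, which shuttle between nucleus and cytoplasm and bind MEF2 factors, Hdac5 fell, Hdac9 rose and Hdac4 was not called. Hdac5 had 89.1 and 98.9 CPM untreated and 43.7 and 32.2 CPM after LPS (a log2 change of -1.32, SE 0.13, adjusted p = 8.1e-12). It was still lower, at -0.92, after GC correction. Hdac9 rose from 61.4 and 56.2 to 76.2 and 76.8 CPM (1.30-fold, log2 fold change 0.38, SE 0.12, adjusted p = 0.0065). The Hdac9 value was 0.02 by library size alone, and it missed the threshold with DESeq2 (adjusted p = 0.0802) and without untreated replicate 2 (adjusted p = 0.135). Hdac4 had 103 reads in all and a log2 fold change of -0.06 (SE 0.32). Hdac7 had no reads on its own strand in any library. In the column that counts the opposite strand it had 13 and 14 reads untreated and 5 and 4 after LPS. In that column 5 enzyme genes had enough reads for the test and 3 were called (Kdm7a and Suv39h2 higher, beside 19.3% of its genes, and Kat5 lower, beside 15.7%), against 35% of its genes in either direction.

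Both tested class IIb genes fell, beside 25.3% of all genes. Hdac10, a polyamine deacetylase gene, went from 28.1 and 29.9 to 17.0 and 14.3 CPM (log2 fold change -0.90, SE 0.18, adjusted p = 4.5e-05). Hdac6, which deacetylates tubulin, went from 28.3 and 31.2 to 21.8 and 17.3 CPM (log2 fold change -0.61, SE 0.17, adjusted p = 0.0027). DESeq2 gave Hdac6 an adjusted p of 0.0829, and the call was also lost without LPS replicate 2 (adjusted p = 0.0661). Hdac11, the class IV gene, had no reads. A count of 0 allows up to 3 reads per library, which is 0.574 to 1.04 CPM, and this covers counting error only.

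None of the 7 sirtuin genes, which encode NAD-dependent deacylases, was called, although 4 were lower with library size alone. That scaling called 61.6% of all genes, and 22.4% of its calls were higher. Sirt2, mainly cytoplasmic, was the most abundant, at 71.5 and 75.6 CPM untreated and at 67.2 and 68.9 CPM after LPS (a log2 change of -0.11, SE 0.12). Sirt1, a nuclear deacetylase that acts on the NF-kB subunit p65, was at 47.6 and 40.5 CPM and then at 38.1 and 37.6 CPM. Its log2 fold change of -0.22 (SE 0.14) passed only with upper-quartile scaling, library size alone and GC correction (adjusted p = 0.0491, 0.000232 and 0.017). The other 5 sirtuins had log2 fold changes from -0.79 (Sirt3, SE 0.42) to 0.23 (Sirt6, SE 0.32). The SE of those 5 genes ranged from 0.22 to 0.47, so the data do not show that sirtuin transcripts stayed the same.

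Related enzymes often moved differently, and the ratio of their reads within a library is free of any scaling between libraries. It is not free of the trend with GC content given below. Transcripts of Hdac5 and Hdac9 have 59.8% and 45.0% GC, and those of Kat2a and Kat2b 57.4% and 46.6%. The part of GC content in the ratios was not tested. These 16 pairs were chosen with the results known, and with 2 libraries per group an exact test cannot go below p = 0.333, so the ratios are descriptions. Setdb2 had 0.0598 and 0.101 reads per Setdb1 read untreated, and 0.473 and 0.516 after LPS. Kat2b had 0.658 and 0.601 reads per Kat2a read untreated, and 1.53 and 2.09 after LPS, so the more counted gene of this pair changed. Reads of Kat7 per Kat5 read went from 3.73 in each untreated library to 1.06 and 0.790.

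The ratio of Hdac5 to Hdac9 turned over as well, from 1.45 and 1.76 to 0.573 and 0.419. That of Kdm3b to Kdm3a went from 1.36 in each untreated library to 0.675 and 0.786. Kdm4b to Kdm4a moved from 0.848 and 0.669 to 0.280 and 0.251, and Kdm2b to Kdm2a from 0.427 and 0.331 to 0.129 and 0.132. In each of these pairs the LPS libraries did not overlap the untreated ones. Ratios of Crebbp to Ep300, Ehmt1 to Ehmt2 and Kdm1b to Kdm1a overlapped between the groups. For Crebbp to Ep300 they were 0.961 and 0.814 untreated and 0.645 and 0.826 after LPS.

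**Figure D3:**
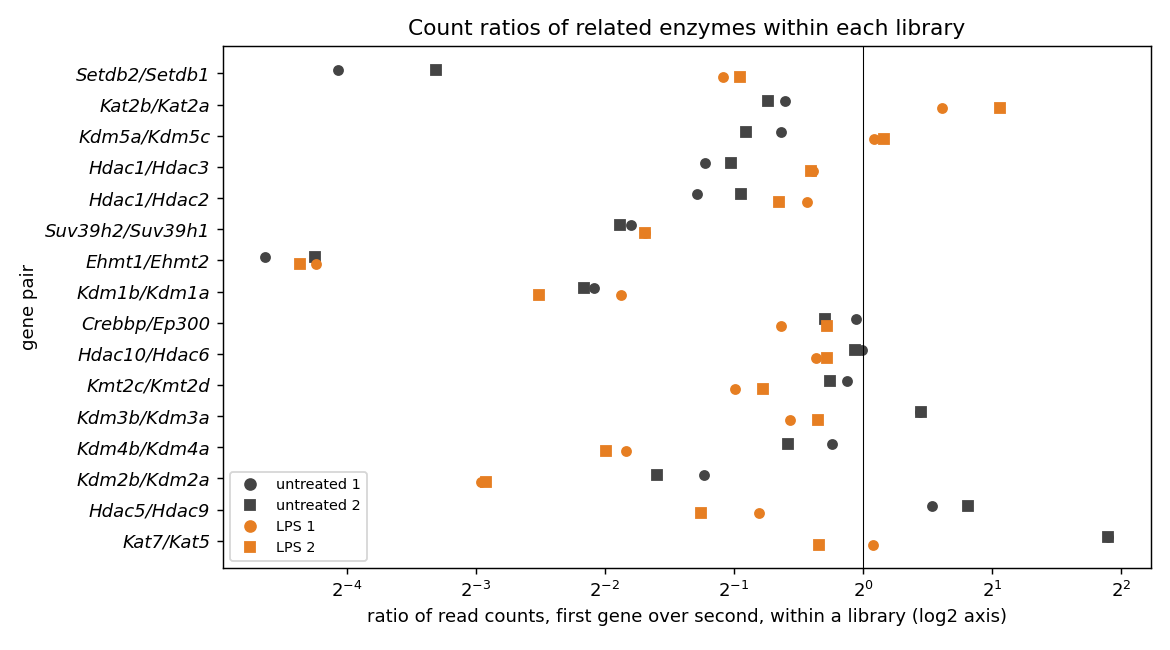
Ratio of the read counts of related genes within each library, first gene over second, on a log2 axis; grey is untreated, orange is LPS, circles are replicate 1 and squares replicate 2. Setdb2/Setdb1, Kat2b/Kat2a and Kdm5a/Kdm5c shift to the right after LPS and Kat7/Kat5, Hdac5/Hdac9 and Kdm2b/Kdm2a to the left, while Crebbp/Ep300 overlaps.

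Per kilobase of the longest transcript, the order of untreated mean levels began with Ehmt2 (39.2 CPM per kb), Sirt2 (34.8), Setd8 (33.7), Setd3 (30.3) and Kdm1a (27.5). Ehmt2 lay above Sirt2 in both untreated libraries, at 38.9 and 39.6 against 33.8 and 35.7 CPM per kb, while Sirt2 and Setd8 overlapped, the latter at 34.4 and 33.0. After LPS, Setd3 had the highest mean (37.8 CPM per kb), followed by Sirt2 (32.2), Kdm1a (30.8) and Setd8 (29.2), and Ehmt2 stood at 24.5. Kmt2d was at 3.11 and Kmt2a at 1.46 CPM per kb untreated, and Kdm5b, the lowest of the tested genes, at 0.257. The lengths are those of an annotation that may differ from the one the reads were counted on.

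The partners of these enzymes were read from 8 further lists. Their counts by library size alone stand beside 61.6% of all genes called, 22.4% of those higher. Their counts with DESeq2 stand beside 33.3% of all genes called, 55.3% of those higher. Of 13 subunits shared by the H3K4 methyltransferase complexes, 8 fell and none rose, with a median log2 fold change of -0.35, beside 25.3% of all genes lower. Rbbp5, a core subunit, went from 45.7 and 42.7 to 22.9 and 27.6 CPM (-0.80, SE 0.15), and Pagr1a from 16.8 and 19.7 to 11.1 and 8.20 CPM (-0.93, SE 0.23). Wdr5, Ash2l, Men1, Hcfc1, Paxip1 and Wdr82 also fell. With DESeq2, 3 of these 13 genes were lower. Of 30 acetyltransferase complex partners, 13 fell and 3 rose (median -0.34), beside 25.3% and 26.6% of all genes. DESeq2 gave 6 and 1. Ing4, a reader of H3K4 methylation in the HBO1 complex, fell from 32.7 and 30.3 to 13.2 and 14.9 CPM (-1.16, SE 0.18). Hat1, which acetylates newly made histone H4, rose from 175 and 171 to 248.8 and 251 CPM (0.53, SE 0.09), but was not called by library size alone, where no gene of the list rose.

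Of 26 tested subunits of deacetylase corepressor complexes, 5 rose and 13 fell (median -0.23), beside 26.6% and 25.3% of all genes. DESeq2 gave 3 and 8, and library size alone 3 and 17. Sap30, a subunit of the Sin3 complex, rose from 126 and 129 to 298 and 336 CPM (log2 fold change 1.32, SE 0.09). Chd4, the ATPase of the NuRD complex, fell from 416 and 380 to 218 and 220.1 CPM (-0.86, SE 0.09). Of 13 bromodomain readers, 4 rose and 2 fell (median -0.01), beside 26.6% and 25.3% of all genes. Trim28, the corepressor that recruits SETDB1, fell from 262 and 242 to 93.6 and 78.0 CPM (-1.56, SE 0.10). Brd3 fell from 39.6 and 33.2 to 15.6 and 14.3 CPM (-1.29, SE 0.18). By library size alone, 1 gene of the list was higher and 7 lower.

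Polycomb repressive complex 2, which writes H3K27 methylation, had 3 genes higher and 2 lower of 11, beside 26.6% and 25.3% of all genes. By library size alone it had 1 and 5, and with DESeq2 1 and none. Aebp2, an accessory subunit, rose from 15.9 and 11.5 to 29.1 and 22.2 CPM (0.88, SE 0.20), and Jarid2 fell from 33.7 and 34.3 to 23.6 and 22.8 CPM (-0.55, SE 0.16), a call lost with DESeq2. Ezh2, the main catalytic subunit, went from 81.3 and 78.1 to 72.4 and 57.4 CPM (-0.30, SE 0.12, adjusted p = 0.032). It did not pass without untreated replicate 1, untreated replicate 2 or LPS replicate 2 (adjusted p = 0.186, 0.0923 and 0.402). Of 17 other tested methyltransferase and demethylase genes, 3 rose and 4 fell, beside the same shares of all genes. Library size alone gave 2 and 11, and DESeq2 2 and none. Mina, a histidine hydroxylase gene, rose from 47.8 CPM in each untreated library to 111 and 121 CPM (1.28, SE 0.11). Jmjd1c, a relative of Kdm3a, rose from 69.8 and 70.3 to 138 and 111 CPM (0.82, SE 0.11).

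Of 8 arginine methyltransferase genes, 2 fell and none rose, or 5 and none by library size alone, beside 25.3% of all genes lower with TMM scaling. Prmt7 went from 143 and 148 to 65.2 and 66.8 CPM (log2 fold change -1.14, SE 0.11). Carm1 went from 55.1 and 72.1 to 46.8 and 42.8 CPM (-0.50, SE 0.14), and did not pass without untreated replicate 2 (adjusted p = 0.16) or after GC correction. Among 7 DNA methyltransferase and TET genes, 3 rose and 2 fell, beside 26.6% and 25.3% of all genes. Library size alone gave 2 and 3. Tet2, a DNA demethylation enzyme that recruits histone deacetylases, rose from 26.8 and 31.8 to 104 and 103 CPM (1.82, SE 0.13). Dnmt3l, a cofactor of de novo methylation that reads unmethylated H3K4, rose from 9.94 and 10.4 to 29.8 and 38.6 CPM (1.76, SE 0.19).

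Across genes, log2 fold changes fell with the GC content of the longest transcript, and the enzymes were read against this. Of the 30 enzymes above 50% GC, 2 were called higher and 10 lower, beside 18.4% and 36.9% of all such genes. Of the 32 at or below it, 10 were higher and 3 lower, beside 33.7% and 15.4%. After correcting for GC, 14 enzymes were higher and 14 lower in all, beside 49.2% of all genes called, 54.2% of those higher. Kat7, Kdm2b and Hdac5 were then at -1.35, -1.21 and -0.92, and Setdb2, Kat2b and Hdac1 at 2.24, 1.10 and 0.92. Dot1l, Kdm1a and Setd1b became higher and Sirt1 and Kdm4c lower, whereas Hdac2 and Kat2a were no longer called.

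**Figure D4:**
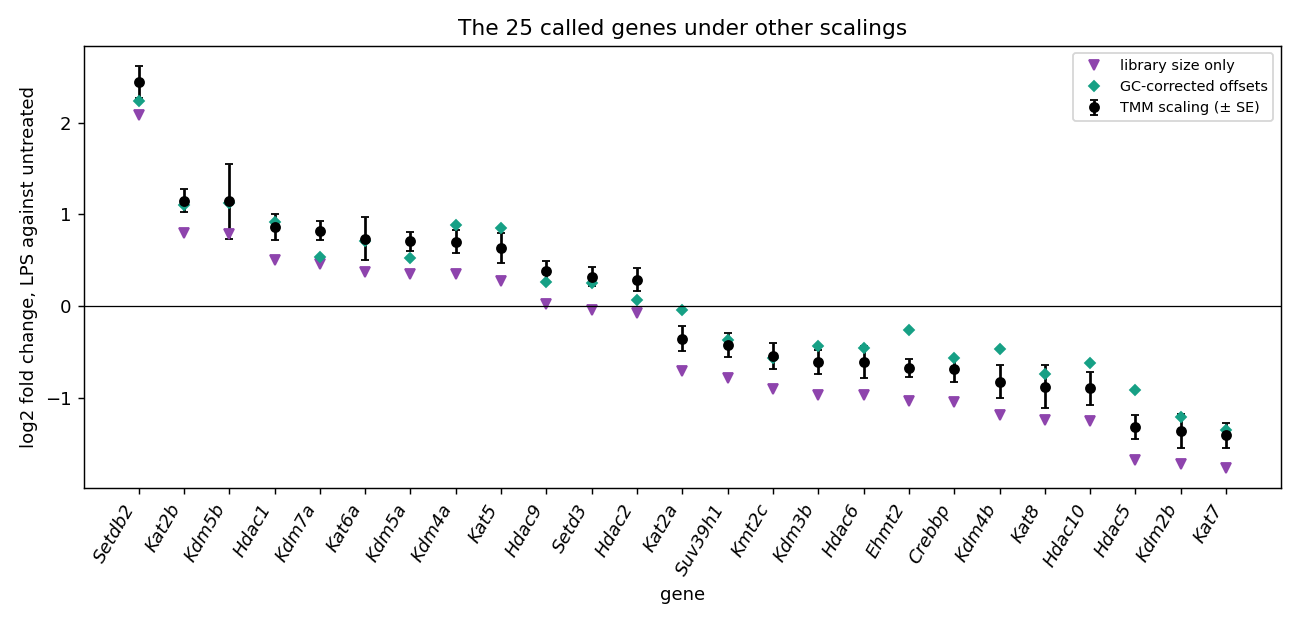
Log2 fold change of the 25 called genes with TMM scaling (black, with SE), with library size alone (purple triangles) and with GC-corrected offsets (green diamonds). Setd3 and Hdac2 lie below 0 with library size alone, at -0.04 and -0.07, and Kat2a lies at -0.04 after GC correction.

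The LPS libraries differed from each other along transcript length. Of the 15 enzymes with transcripts over 8 kb, 14 had a higher level in LPS replicate 1 than in LPS replicate 2, with a median log2 ratio of 0.49, computed on CPM + 1. All 544 tested genes of that length had a median of 0.23. Among the 19 enzymes of 2 to 4 kb the median was -0.01, beside -0.03 in all genes of that length. In the untreated pair the medians over 8 kb were 0.09 for the enzymes and -0.00049 for all genes. The long-transcript enzymes include Kmt2a, Kmt2c, Kmt2d, Crebbp, Ep300, Kdm2a and Kat6a, whose values above are spread between the LPS libraries. Others of that length differed less, as Kdm7a, Kdm5a and Kdm5b, with plain log2 ratios of CPM of 0.08, 0.11 and -0.09. The part of transcript length in those values was not tested.

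**Figure D5:**
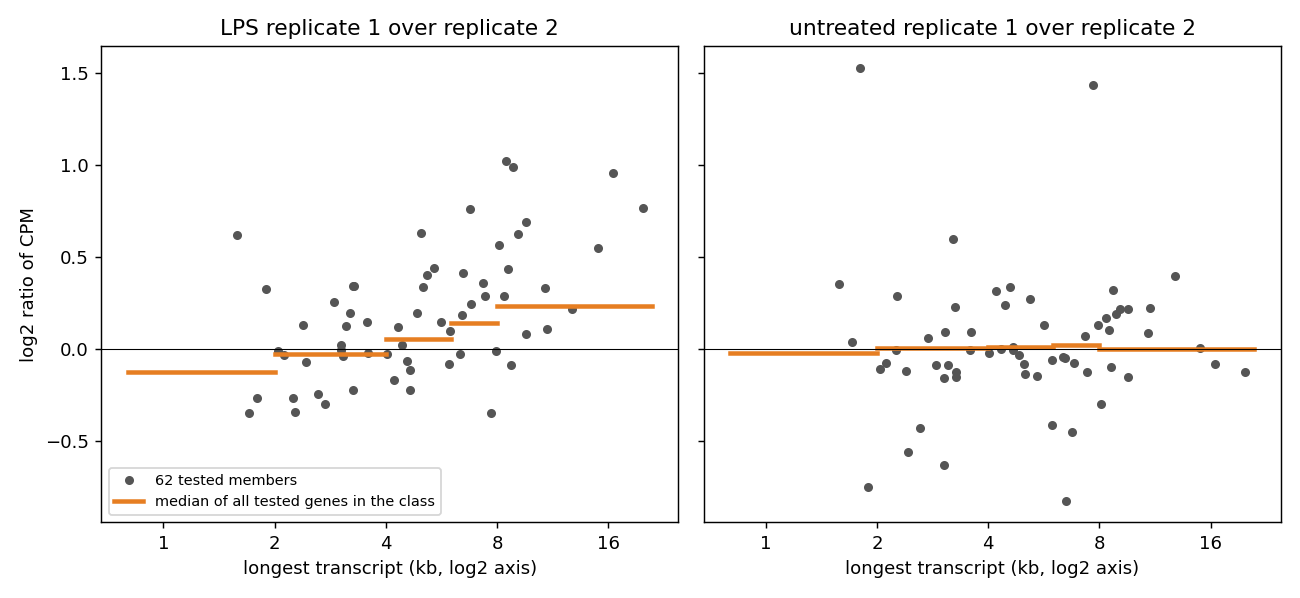
Log2 ratio of CPM between replicates 1 and 2 against transcript length in kb (log2 axis), for the LPS pair on the left and the untreated pair on the right. Points are the 62 tested enzymes, as plain ratios of CPM. Orange bars are the median of all tested genes in a length class, computed on CPM + 1, so points and bars differ slightly in measure. Above 8 kb the LPS bar is at 0.23 and the untreated bar at -0.00049.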

How the data were processed

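The labels' protocols describe rRNA-depleted, strand-specific paired-end libraries. Their extraction text names human mesenchymal stem cells, whereas organism and symbols are mouse. Per the submitters' processing notes the tools were STAR 2.5.1, Trimmomatic 0.33, CASAVA 1.8.2 and DESeq2. They list the human build hg19, so no gene coordinates are printed beyond those of the RefSeq promoters. The gene models are not given in the sources used here. The deposited files hold read counts that are not normalized, in STAR's layout. The reverse-strand column was used, whose total was 78.7 to 95.3 times the forward-strand total. Reads in no feature (51.8% to 59.1% of uniquely placed reads) stayed out of library sizes.

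Counts were filtered with edgeR's filterByExpr, TMM-scaled and tested with edgeR 4.0.16 (R 4.3.3, robust quasi-likelihood, two-sided, a single treatment term). Benjamini-Hochberg adjustment ran over 9992 genes. SE is the absolute log2 fold change over the root of F. Transcript length and GC came from the longest GENCODE vM21 transcript, matched for all 67 genes and 99.6% of tested genes. GC correction used a loess curve per library (span 0.5). Promoters came from the RefSeq table, which held 50 of the tested genes.

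Members, lists, pairs and the naming rule were chosen with earlier results of these data known. Named are the 10 largest rises and falls among called members with at least 2 CPM and separated groups, the 2 most abundant of each role and 13 fixed genes; other members were named after their values were seen. Of each partner list, the 2 called genes of smallest p and Ezh2 are given with values. No label says that replicate libraries are separate cultures, so p-values measure the spread between these libraries, which may be technical. The chi-square per degree of freedom between replicates was 1.52 untreated and 2.44 after LPS.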

Additional observations from a re-analysis of the deposited data

Results flagged for a closer look

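Reads on the strand opposite to a gene, which lie outside the main measurement, were higher after LPS at 2 of the 5 enzyme genes with enough such reads, beside 19.3% of the 757 genes tested in that column. At Kdm7a they numbered 6 and 5 untreated and 22 and 22 after LPS (edgeR log2 fold change 2.54 with an SE of 0.48, adjusted p = 0.00051), which is 1.19% and 1.33% of its stranded reads untreated and 4.51% and 4.18% after LPS. At Suv39h2 they numbered 11 and 4 untreated and 13 and 13 after LPS (log2 fold change 1.35, SE 0.51, adjusted p = 0.046), while the gene's own strand was at -0.28. At Kat5 they were lower, with 33 and 33 untreated and 7 and 14 after LPS (log2 fold change -1.09, SE 0.37, adjusted p = 0.028), beside a rise of 0.63 on its own strand. Kdm1b, with 32.6% to 49.5% of its stranded reads on the opposite strand, and Hdac7, with all of them, were not called there. Which transcripts these reads come from was not tested.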

How the results depend on the processing

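Alternatives were 12 planned settings and 2 chosen after seeing the data (GC-corrected offsets, and leaving out 5 abundant entries). Of 868 values of single enzymes under them, 785 kept their side of the threshold. Called values among these also kept their direction, while some uncalled values changed sign. With the direction kept, 38 lost the call and 42 gained one. Another 3 changed sign, each called in the main fit or under the alternative but not in both. In all, 14 of the 25 called enzymes kept their call throughout. These 3 sign changes all came with library size alone. Hdac2 (-0.070) and Setd3 (-0.038) lost their calls there, and Dot1l (-0.30) was called there but not in the main fit (0.05). Scaling by library size alone gave 6 enzymes higher, 29 lower, a median of -0.32 and 3 role lists with a positive median in place of 6. It called 61.6% of all genes, and 22.4% of those calls were higher. Upper-quartile scaling gave 20 lower. DESeq2 gave 7 higher, 8 lower, 34 partner genes called in place of 67 and 3324 genes in all in place of 5186. Leaving out 1 library each gave 7 to 15 higher, 10 to 17 lower, medians of -0.18 to 0.11, 48 to 66 partner genes, 5 to 8 role lists and 4063 to 4917 genes; the lone library of a group is then assumed to vary like the other group. The causes were not tested. Across genes, the differences between replicates 1 and 2 correlated at -0.04 between the groups. A single correlation cannot show whether libraries of the same replicate number were prepared as pairs. With the replicate number as a block in edgeR, 12 enzymes were higher and 14 lower, Ep300 being added (adjusted p = 0.0071). That fit called 5171 genes in all. Depth limits the rarer enzymes: the median SE was 0.41 for the 6 with up to 100 reads and 0.12 for the 17 above 1000.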
